A study of Mus musculus with 6 samples.

Results

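A set of 10 genes of sialic acid metabolism was followed in sorted muscle stem cells of mice with a targeted estrogen receptor α gene and of their controls. They were the sialidase genes Neu1, Neu2 and Neu3, the synthesis and activation genes Gne, Nans and Cmas, the transporter gene Slc35a1, and the sialyltransferase genes St3gal1, St3gal4 and St6gal1. All 10 symbols were found once each among the 24980 symbols of the deposited table. Neu2 was chosen because its level differed between the groups, and the other 9 were chosen by their roles in the same pathway with that result known. The difference between KO and WT is therefore given for all 10 as a description. Of the 10, 6 also entered the limma test over the whole table, and nothing is read from their p-values.

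Satellite cells, the stem cells of skeletal muscle, were sorted by flow cytometry from the hindlimbs of adult mice of the strain C57BL6/J. The 3 KO libraries carry the genotype label scERα KO, read here as loss of estrogen receptor α, the product of Esr1, in satellite cells, and the 3 WT libraries carry the label scERα WT. Tamoxifen, 10 mg in total, was injected in both groups and serves to activate Cre, and the only comparison the labels give is KO against WT. The Cre driver, the allele of Esr1 and the sex of the mice are not named in the labels. Whether a library is 1 animal is not said, so p-values reflect library-to-library spread alone, some of which may be technical.

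The values are TPM, a measure scaled for transcript length and library total, so levels can be compared between genes. The listed TPM summed to 295306 to 334382 per library, and TPM keeps no sequencing depth, so no counting error can be given. Protein-coding genes held 98475 to 120264 TPM per library. Their TPM values, and words such as low or scarce, are thus smaller here than on a scale of protein-coding genes alone. Esr1 lay at 2.92, 3.69 and 3.87 TPM in KO libraries 1, 2 and 3, against 7.53, 6.96 and 6.94 TPM in WT libraries 1, 2 and 3, so each library had Esr1 on the side its label names. All 12 satellite cell markers looked up, among them Pax7, Vcam1 and Chodl, were at 1 TPM or more in every library. Over the 8971 genes tested with limma, 5 passed an adjusted p of 0.05, and the median log2 difference between KO and WT was 0.12. That median is on log2(TPM + 1), where the size of a difference also depends on the level of the gene. For genes of low TPM, a difference near 0.12 therefore does not tell whether the gene moved with the bulk of the table.

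Sialic acids are acidic sugars that cap the outer ends of the glycans on glycoproteins and gangliosides, the sialic acid-bearing glycolipids of the cell surface. They are built in the cytosol from UDP-GlcNAc, activated to CMP-sialic acid in the nucleus, carried into the Golgi and attached by sialyltransferases, and sialidases take them off again. Skeletal muscle is a tissue in which this pathway is known for disease and for differentiation: mutations of human GNE cause a myopathy, and the cytosolic sialidase Neu2 is abundant in muscle and increases as cultured rodent myoblasts differentiate.

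Neu2, which encodes the cytosolic sialidase and acts on gangliosides and glycoproteins, was the most abundant of the 10 genes in WT cells and was at 19.0% of the WT mean in KO cells. It held 3.07, 1.47 and 1.54 TPM in KO libraries 1, 2 and 3, against 11.48, 6.96 and 13.49 TPM in WT libraries 1, 2 and 3. All KO values lay below all WT values, as they did in 3.07% of the genes tested. The gap between the highest KO library and the lowest WT library was wider than the spread among the KO libraries but narrower than that among the WT libraries. The means were 2.03 ± 0.904 TPM in KO and 10.6 ± 3.34 TPM in WT (SD, n = 3 each). On the log2(TPM + 1) scale, which understates the change of low genes, the difference was -1.94 (SE 0.35), the seventh lowest of the 8971 genes tested. Among the 20506 symbols above 0 in any library, the mean level of Neu2 stood at percentile 69.1 in KO and at percentile 93.4 in WT. In these bulk libraries, fewer cells that make a transcript and less transcript per cell cannot be told apart.

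The Neu2 gene lies on chromosome 1 at 87509889 to 87597845 on the plus strand (GRCm38, GENCODE vM21). The annotation gives 7 transcripts that begin at 5 positions, and the 212 bases from 87594878 to 87595089 lie inside an exon of each of them. The deposited value is 1 number per gene, so it does not tell which start was in use. RefSeq places 3 starts in the gene, and the 250 bases before each are shown because they are the candidate promoters of the gene. Capitals mark the E-box CANNTG, the core bound by MyoD and related myogenic factors, and GGTCA or its reverse complement, the half-site of an estrogen response element; each was searched on both strands, and no match of one overlaps a match of the other.
Neu2 window A, chr1:87573777-87574026, plus strand: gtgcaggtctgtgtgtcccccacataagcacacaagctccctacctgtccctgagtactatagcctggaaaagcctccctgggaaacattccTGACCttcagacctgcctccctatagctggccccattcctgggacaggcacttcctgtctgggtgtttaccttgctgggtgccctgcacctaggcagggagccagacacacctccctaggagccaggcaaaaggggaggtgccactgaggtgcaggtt
Neu2 window B, chr1:87583772-87584021, plus strand: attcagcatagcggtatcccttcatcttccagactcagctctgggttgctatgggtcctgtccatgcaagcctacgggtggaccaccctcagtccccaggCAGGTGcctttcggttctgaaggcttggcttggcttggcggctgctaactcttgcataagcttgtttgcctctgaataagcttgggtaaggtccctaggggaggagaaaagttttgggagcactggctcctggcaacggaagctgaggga
Neu2 window C, chr1:87594300-87594549, plus strand: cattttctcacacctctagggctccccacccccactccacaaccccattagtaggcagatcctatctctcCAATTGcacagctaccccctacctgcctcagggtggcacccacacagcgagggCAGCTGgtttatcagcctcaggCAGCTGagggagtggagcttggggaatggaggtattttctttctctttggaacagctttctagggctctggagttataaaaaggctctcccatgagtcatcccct

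The 3 windows (RefSeq, GRCm38.p6) differ in these letters. Window C holds 3 E-boxes, of which 2 read CAGCTG and begin 127 and 105 bases before the start, and it holds the letters TATAAA beginning 31 bases before the start. At least 2 CAGCTG matches were found in 1.26% of the 32851 promoter windows of the same length in the table, at least 1 E-box of any kind in 66.2%, and TATAAA in 12.4%. Window B holds 1 E-box, and window A holds none but has 1 half-site, which reads TGACC and begins 158 bases before the start. Window A also takes in the annotated start of Ngef, a gene on the opposite strand. The gap between the Ngef start and this Neu2 start is 157 bases, so the half-site lies at the Ngef start and cannot be assigned to Neu2 alone. A half-site was found in 35.2% of all windows, so its presence is common. The full palindromic estrogen response element, a half-site followed after 3 bases by its reverse complement, was in none of the 3 windows and in 0.0639% of all windows. These matches describe letters, not bound sites. Of the members, 8 have an entry in the promoter table, and Nans and St3gal1 are the members without one.

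**Figure D1:**
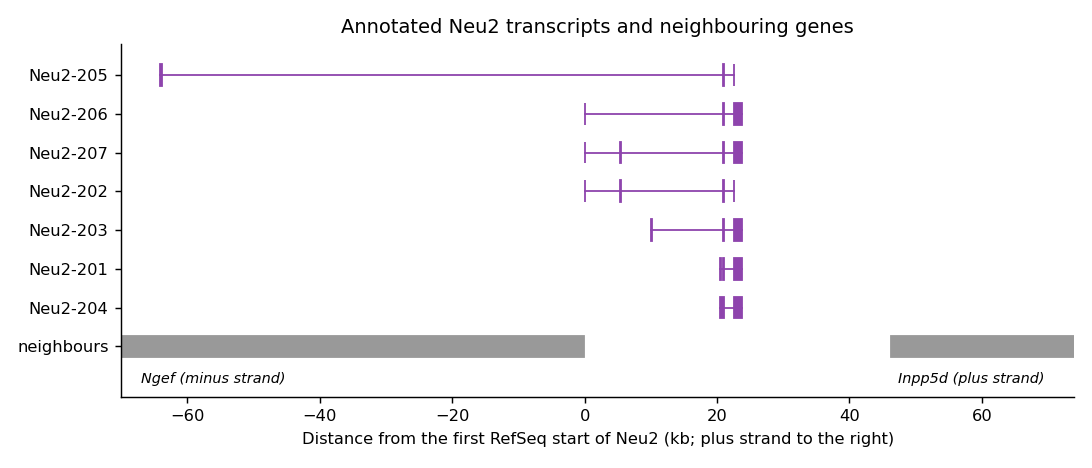
Annotated transcripts of Neu2 (purple boxes are exons) against the distance in kb from the first RefSeq start, with the neighbouring genes Ngef and Inpp5d in grey. All 7 transcripts share exon sequence near the 3′ end, and the transcript with the most distant start, at the top, begins inside Ngef, which lies on the opposite strand.

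Of the genes within 100 kb of Neu2, 4 have a value in the table, and in each of them the groups overlapped. Ngef, a guanine nucleotide exchange factor gene that overlaps Neu2 on the opposite strand at 87476834 to 87573870, held 0.17, 0.09 and 0.10 TPM in KO libraries 1, 2 and 3 and 0.12, 0.26 and 0.26 TPM in WT libraries 1, 2 and 3. The sources used here do not say whether the libraries keep strand, so reads from the stretch that overlaps cannot be told apart. Inpp5d, the lipid phosphatase gene of blood cells that follows Neu2, lay at 0.05 to 0.11 TPM in KO and at 0.01 to 0.11 TPM in WT. Gigyf2, the nearest neighbour with an appreciable level, held 4.33 to 5.42 TPM in KO and 3.84 to 4.56 TPM in WT. Snorc was listed at 0 in all 3 KO libraries and at 0.18, 0 and 0.25 TPM in WT libraries 1, 2 and 3.

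The other sialidase genes overlapped between the groups. Neu3, which encodes the plasma membrane sialidase that acts on gangliosides (chromosome 7, 99811439 to 99828417, minus strand), held 1.79, 2.03 and 1.58 TPM in KO libraries 1, 2 and 3, against 1.44, 2.25 and 1.15 TPM in WT libraries 1, 2 and 3. The KO values lay within the WT range, with means of 1.80 ± 0.225 TPM in KO and 1.61 ± 0.570 TPM in WT (SD, n = 3 each). Neu1, the lysosomal sialidase gene (chromosome 17, 34931253 to 34935953, plus strand), was found at 0.73, 1.61 and 0.89 TPM in KO libraries 1, 2 and 3 and 0.95, 1.14 and 0.82 TPM in WT libraries 1, 2 and 3. The groups overlapped, and KO library 2 was the highest of all. Its log2 difference was 0.06 (SE 0.19) and that of Neu3 0.12 (SE 0.19), and each changed sign when 1 library was left out, to -0.12 without KO library 2 for Neu1 and to -0.01 without WT library 3 for Neu3. The fourth sialidase gene, Neu4, was at 0.03 TPM or less in every library.

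Because Neu2 differed and the other sialidases overlapped, the make-up of the sialidase transcripts was not the same in the 2 groups. Neu2 made up 54.9%, 28.8% and 38.4% of the summed TPM of Neu1, Neu2 and Neu3 in KO libraries 1, 2 and 3, against shares of 82.8%, 67.2% and 87.3% in WT libraries 1, 2 and 3. All KO shares were below all WT shares, and since a share is formed within a library, no rescaling of the library can alter it. Neu2 was chosen for its difference and Neu1 and Neu3 overlapped, so the share restates that difference and is no separate evidence for it. The mean share was 40.7% ± 13.2 in KO and 79.1% ± 10.5 in WT (SD, n = 3 each). Summed over the 3 genes the level was 4.90 ± 0.810 TPM in KO and 13.2 ± 2.62 TPM in WT, while Neu1 and Neu3 together gave 2.88 ± 0.662 TPM in KO and 2.58 ± 0.729 TPM in WT (SD, n = 3 each). In KO libraries 2 and 3 Neu3 exceeded Neu2, with Neu2 to Neu3 ratios of 0.724 and 0.975, whereas in KO library 1 the ratio was 1.72 and in the WT libraries it was 7.97, 3.09 and 11.7.

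**Figure D2:**
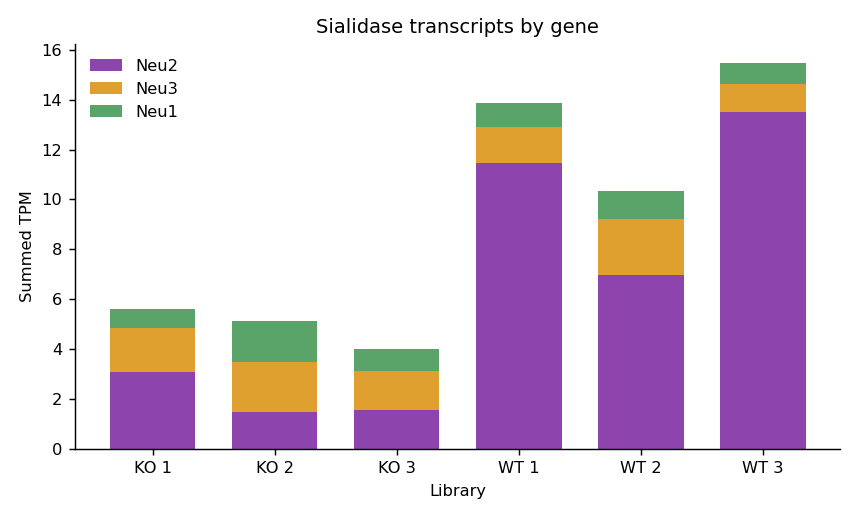
Summed TPM of Neu2 (purple), Neu3 (orange) and Neu1 (green) in each library, KO at the left and WT at the right. The KO columns reach 4.01 to 5.59 TPM and the WT columns 10.35 to 15.46 TPM, and the difference in height lies in the purple part.

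The genes that make and activate sialic acid were low in both groups. Gne encodes the bifunctional epimerase and kinase that opens the pathway and sets its rate (chromosome 4, 44034075 to 44084177, minus strand). It held 0.41, 0.50 and 0.48 TPM in KO libraries 1, 2 and 3, against 0.42, 0.30 and 0.40 TPM in WT libraries 1, 2 and 3, and the groups overlapped by 1 library each. Nans, the sialic acid phosphate synthase gene (chromosome 4, 46489248 to 46503632, plus strand), was found at 1.92, 1.36 and 2.30 TPM in KO libraries 1, 2 and 3 and 1.5, 1.4 and 1.19 TPM in WT libraries 1, 2 and 3. KO libraries 1 and 3 were above every WT library and KO library 2 was not, with a log2 difference of 0.26 (SE 0.15). Cmas, whose product joins sialic acid to CMP (chromosome 6, 142756686 to 142775714, plus strand), was the steadiest of the 10 genes in KO cells, at 0.96, 0.86 and 0.96 TPM in KO libraries 1, 2 and 3 and 0.85, 0.96 and 0.66 TPM in WT libraries 1, 2 and 3.

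Slc35a1, the gene of the transporter that moves CMP-sialic acid into the Golgi (chromosome 4, 34663257 to 34687438, minus strand), lay on the side opposite to Neu2. It held 2.35, 2.51 and 3.03 TPM in KO libraries 1, 2 and 3, against 1.84, 1.53 and 1.61 TPM in WT libraries 1, 2 and 3, and all KO values were above all WT values. The means were 2.63 ± 0.356 TPM in KO and 1.66 ± 0.161 TPM in WT (SD, n = 3 each), with a log2 difference of 0.45 (SE 0.09), against the median of 0.12 over all genes tested. KO lay entirely above WT in 13.5% of the genes tested. Set against Cmas within a library, Slc35a1 stood at 2.45, 2.92 and 3.16 times its level in KO libraries 1, 2 and 3 and at 2.16, 1.59 and 2.44 times in WT libraries 1, 2 and 3, so by this ratio the groups still did not overlap, although KO library 1 and WT library 3 were nearly equal. The summed TPM of Gne, Nans, Cmas and Slc35a1 was 5.88 ± 0.798 in KO and 4.22 ± 0.376 in WT (SD, n = 3 each), without overlap. That sum includes Slc35a1 itself, and the groups overlapped in each of Gne, Nans and Cmas.

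Of the sialyltransferases, the more abundant St3gal1 and St3gal4 overlapped between the groups and the scarce St6gal1 did not. St3gal1, which caps mucin-type O-glycans with sialic acid (chromosome 15, 67102875 to 67176830, minus strand), held 2.65, 4.49 and 3.49 TPM in KO libraries 1, 2 and 3, against 3.02, 3.88 and 3.08 TPM in WT libraries 1, 2 and 3. The KO values spanned the whole WT range. St3gal4, which acts on N-glycans and O-glycans (chromosome 9, 35046576 to 35119268, minus strand), held 1.92, 2.32 and 1.95 TPM in KO libraries 1, 2 and 3 and 1.72, 2.06 and 1.92 TPM in WT libraries 1, 2 and 3, also with overlap. The log2 differences of St3gal1 and St3gal4 were 0.06 (SE 0.19) and 0.08 (SE 0.08), and both changed sign when libraries were scaled by median of ratios (-0.06 and -0.02) or quantile normalized (-0.06 and -0.04). Without KO library 2 the difference of St3gal1 was -0.09.

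St6gal1, which caps N-glycans and is best known from B cells and liver (chromosome 16, 23224740 to 23360350, plus strand), was the lowest of the 10 genes in every library. It held 0.19, 0.36 and 0.43 TPM in KO libraries 1, 2 and 3, against 0.03, 0.12 and 0.11 TPM in WT libraries 1, 2 and 3. All KO values were above all WT values, with means of 0.327 ± 0.123 TPM in KO and 0.0867 ± 0.0493 TPM in WT (SD, n = 3 each), and the log2 difference was 0.28 (SE 0.09), or 1.19 with a pseudocount of 0.1. KO lay entirely above WT in 13.5% of the genes tested. At levels under 1 TPM throughout, St6gal1 did not enter the test, so that percentage does not cover it, and its precision is unknown. It made up 3.99%, 5.02% and 7.33% of the summed TPM of the 3 sialyltransferases in KO libraries 1, 2 and 3 and 0.629%, 1.98% and 2.15% in WT libraries 1, 2 and 3. Their sum was 5.93 ± 1.21 TPM in KO and 5.31 ± 0.669 TPM in WT, with overlap (SD, n = 3 each).

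**Figure D3:**
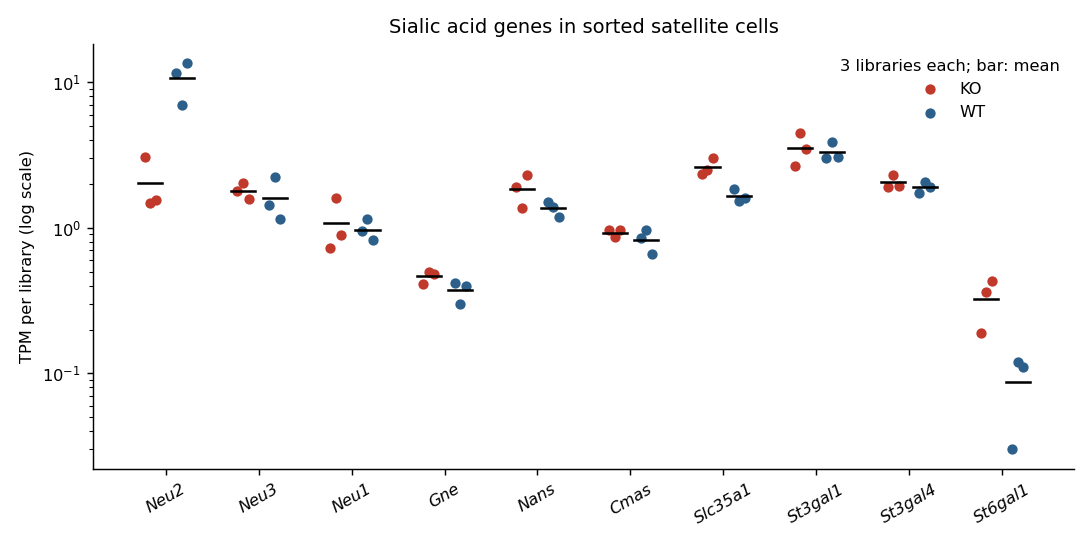
TPM of the 10 genes in each library on a log scale, KO (red) left of WT (blue), with a bar at each mean. Neu2 lies lower in all KO libraries, Slc35a1 and St6gal1 lie higher in all KO libraries, and the other 7 genes overlap. Of the genes tested, which do not include St6gal1, KO lay entirely above WT in 13.5% and entirely below in 3.07%.

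Of the 10 genes, 6 passed the filter for testing, which asks for 1 TPM or more in at least 3 libraries, and Neu1, Gne, Cmas and St6gal1 did not. None of the 6 was among the genes called by limma after Benjamini-Hochberg adjustment over the table, where 0.0557% of genes were called, 0.0334% higher and 0.0223% lower. Of the 6, 1 higher and 1 lower had an unadjusted p under 0.05, where 7.89% and 2.66% of all genes tested had. That background depends on the scaling: 708 genes were higher and 239 lower as deposited, against 355 higher and 435 lower under median-of-ratios scaling and 368 higher and 435 lower under quantile normalization. The member lower at that unadjusted p was Neu2, which was chosen for this difference. Since the members were chosen with this comparison in view, nothing is read from the counts of members. The 9 genes other than Neu2 all had a positive log2 difference, between 0.06 and 0.45 with a median of 0.09, although Neu1, St3gal1 and St3gal4 changed sign under median-of-ratios scaling. Of the 9, 3 lay above the median of 0.12 over all genes tested, in which 77.6% of differences were positive. That count depends on the pseudocount. With a pseudocount of 0.1 the median over all genes tested was 0.158. Neu3 (0.193), Gne (0.257), Nans (0.398), Cmas (0.165), Slc35a1 (0.629) and St6gal1 (1.19) then lay above it. KO lay entirely below WT in 3.07% of the genes tested.

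The order of the 10 genes by level differed between the groups mainly in where Neu2 stood. In WT cells Neu2 was first in every library, and its lowest value was above the highest value of St3gal1, the gene that followed. In KO cells it was first in library 1 and sixth in libraries 2 and 3, and its range overlapped those of both neighbours in the order, St3gal4 and Nans. St3gal1 led in KO by the mean, and its range overlapped that of Slc35a1, the next. At the low end the order was Cmas, Gne and St6gal1 in both groups; Cmas was clear of Gne in both, while Gne and St6gal1 overlapped in KO and were apart in WT. The coefficient of variation of Neu2 was 44.6% in KO and 31.4% in WT. Other members varied widely too: the coefficient of Neu1 was 43.5% in KO and 16.6% in WT, that of St6gal1 37.8% in KO and 56.9% in WT, and that of Neu3 12.5% in KO and 35.3% in WT. St3gal4 was steadier, at 10.8% in KO and 8.99% in WT.

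Other genes of the pathway, taken from lists written by role and not by how they moved, were tested in the fit over the whole table. Of 65 listed genes 23 were tested, and 0 were called in either direction by limma after adjustment over all genes tested. Of the 23, 3 higher and 1 lower had an unadjusted limma p under 0.05, where 7.89% and 2.66% of all genes tested had. KO lay entirely above WT in 2 of the 23 and entirely below in 1, against 13.5% and 3.07% of all genes tested. The median log2 difference of the 23 was 0.10, against 0.12 over all genes tested. There were 18 positive and 5 negative values, where 77.6% of all genes tested had a positive difference. Scaled by median of ratios, the median over all genes tested became 0.01, and these signs are to be read against that shift.

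The gene of these lists that stood farthest from the rest was Gfpt2, which encodes a form of the enzyme that commits a sugar phosphate of glycolysis to UDP-GlcNAc, the raw material of sialic acid. Gfpt2 held 13.27, 16.03 and 9.16 TPM in KO libraries 1, 2 and 3, against 24.74, 20.56 and 29.60 TPM in WT libraries 1, 2 and 3. All KO values lay below all WT values, as they did in 3.07% of the genes tested. The log2 difference of -0.93 (SE 0.22) had a limma adjusted p of 0.192 and so did not pass. Across the 16 other settings its adjusted p by limma ran from 0.0494 to 0.480, and it passed in 1 of them, the fit with estimated library weights. The other form, Gfpt1, lay on the other side, at 3.06, 2.78 and 2.82 TPM in KO libraries 1, 2 and 3 and 2.33, 1.90 and 1.91 TPM in WT libraries 1, 2 and 3 (log2 difference 0.35, SE 0.12, limma adjusted p = 0.325). Gfpt2 made up 81.3%, 85.2% and 76.5% of the summed TPM of both in KO libraries 1, 2 and 3 and 91.4%, 91.5% and 93.9% in WT libraries 1, 2 and 3, so it remained the more abundant form in every library.

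The later steps to UDP-GlcNAc showed smaller differences that did not pass. Gnpnat1, the acetyltransferase gene, held 1.94 ± 0.231 TPM in KO and 1.44 ± 0.236 TPM in WT (SD, n = 3 each; limma adjusted p = 0.503). Uap1, which makes UDP-GlcNAc itself, held 14.3 ± 2.86 TPM in KO and 12.5 ± 0.803 TPM in WT (SD, n = 3 each; limma adjusted p = 0.724), and Pgm3, the mutase gene between them, 1.34 ± 0.0854 TPM in KO and 1.19 ± 0.0907 TPM in WT (limma adjusted p = 0.755). Slc17a5, the lysosomal exporter of free sialic acid, held 1.42 ± 0.262 TPM in KO and 1.15 ± 0.307 TPM in WT (limma adjusted p = 0.687). Ctsa, whose product protects Neu1 in the lysosome, held 2.12 ± 0.356 TPM in KO and 2.0 ± 0.564 TPM in WT (limma adjusted p = 0.886). In this list of supply and salvage genes 9 of 18 were tested, 0 were called by limma, 1 higher and 1 lower had an unadjusted p under 0.05, and the median log2 difference was 0.10. At that unadjusted limma p, 7.89% of all genes tested were higher and 2.66% lower, and 0.0557% were called after adjustment.

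**Figure D4:**
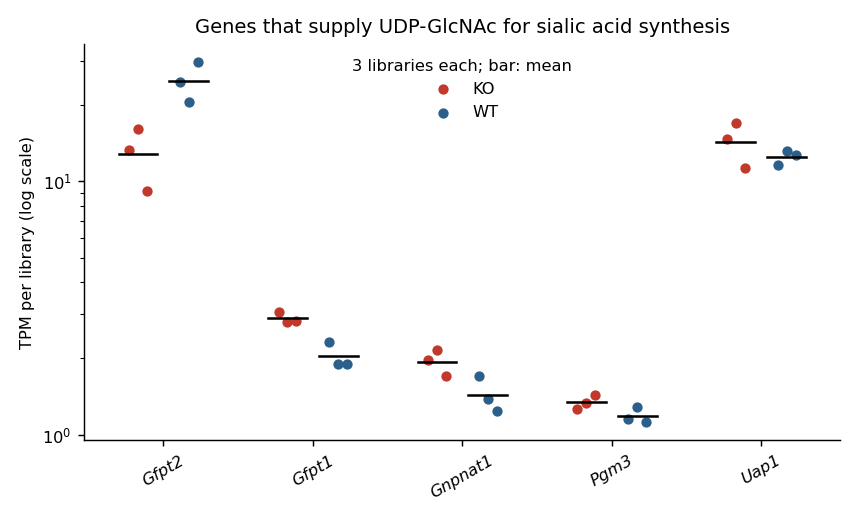
TPM of the genes leading to UDP-GlcNAc in each library on a log scale, KO (red) left of WT (blue), with a bar at each mean. Gfpt2 lies lower in all KO libraries, and Gfpt1 lies higher in all KO libraries. Of the genes tested, KO lay entirely below WT in 3.07% and entirely above in 13.5%.

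Most other sialyltransferase genes were scarce in these cells. Of 17 in the list 2 were tested, and the highest value of any of the other 15 in any library was 1.56 TPM. St3gal5, whose product makes the ganglioside that Neu2 is known to act on in cultured mouse myoblasts, was the more abundant, at 6.17, 9.36 and 8.12 TPM in KO libraries 1, 2 and 3 and 6.65, 8.95 and 8.46 TPM in WT libraries 1, 2 and 3. Its groups overlapped fully, with a log2 difference of -0.03 (SE 0.18, limma adjusted p = 0.952). St3gal2 held 3.5, 4.64 and 5.0 TPM in KO libraries 1, 2 and 3 and 3.52, 3.12 and 3.86 TPM in WT libraries 1, 2 and 3 (limma adjusted p = 0.586). By limma 0 of the 2 passed, also at an unadjusted p under 0.05. St3gal5 was above Neu2 in every KO library, and in the WT libraries it was below Neu2 in libraries 1 and 3 and above it in library 2.

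Genes of ganglioside synthesis and breakdown had a median log2 difference of 0.02 over 9 tested members of 18, with 0 called by limma and 2 higher and 0 lower at an unadjusted p under 0.05. Over all genes tested, 7.89% were higher and 2.66% lower at that unadjusted limma p, and 0.0557% were called. Asah1, the lysosomal acid ceramidase gene, had the smallest p, at 6.47, 7.19 and 6.67 TPM in KO libraries 1, 2 and 3 and 5.17, 4.14 and 4.52 TPM in WT libraries 1, 2 and 3. Its groups did not overlap, with a log2 difference of 0.47 (SE 0.13) and a limma adjusted p of 0.222. KO lay entirely above WT in 13.5% of all genes tested. Psap, the precursor of the saposins that help lysosomal enzymes reach glycolipids, held 32.4 ± 3.06 TPM in KO and 24.6 ± 4.57 TPM in WT (SD, n = 3 each; limma adjusted p = 0.445). Ugcg, which opens glycosphingolipid synthesis, held 28.42, 19.46 and 18.13 TPM in KO libraries 1, 2 and 3 and 17.94, 20.45 and 11.47 TPM in WT libraries 1, 2 and 3 (limma adjusted p = 0.599), and B4galt5, which adds the next sugar, 4.32 ± 0.724 TPM in KO and 3.61 ± 0.868 TPM in WT (limma adjusted p = 0.678). Gm2a, the activator of ganglioside breakdown, and Gla, a lysosomal galactosidase gene, differed by -0.05 and -0.03 (limma adjusted p = 0.889 and 0.933). Hexa, the hexosaminidase subunit gene mutated in human Tay-Sachs disease, was nearly equal, at 2.97 ± 0.137 TPM in KO and 2.97 ± 0.228 TPM in WT (limma adjusted p = 0.992). Glb1, the lysosomal galactosidase partner of Neu1 and Ctsa, was at 0.23 to 0.54 TPM in KO and 0.25 to 0.36 TPM in WT and was not tested.

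Of 12 genes of sialic acid binding proteins 3 were tested, and 0 were called by limma, also at an unadjusted p under 0.05. Selp, the P-selectin gene of endothelial cells and platelets, held 0.83, 4.14 and 5.28 TPM in KO libraries 1, 2 and 3 and 2.23, 2.4 and 1.36 TPM in WT libraries 1, 2 and 3, and the E-selectin gene Sele 0.34, 2.45 and 2.96 TPM in KO libraries 1, 2 and 3 and 1.88, 1.63 and 0.97 TPM in WT libraries 1, 2 and 3. In both genes KO library 1 was the lowest library and KO libraries 2 and 3 the highest. Cd22, a lectin gene of B cells, held 1.10 ± 0.231 TPM in KO and 1.10 ± 0.325 TPM in WT (SD, n = 3 each; limma adjusted p = 0.985).

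**Figure D5:**
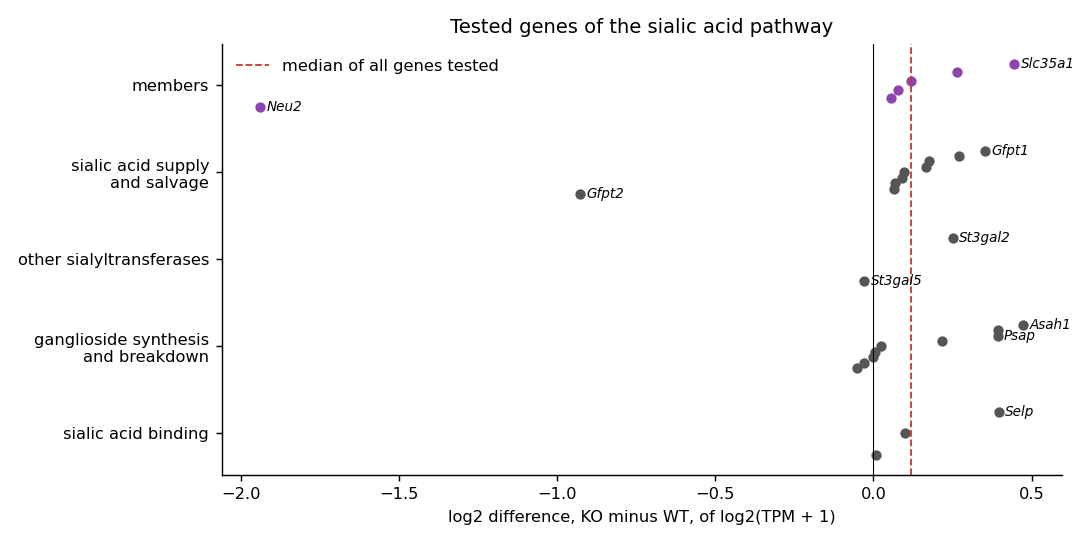
log2 difference (KO minus WT, on log2(TPM + 1)) of each tested gene, for the members and for 4 lists of other pathway genes; the dashed line is the median of all genes tested, 0.12. Neu2 at -1.94 and Gfpt2 at -0.93 lie far left of the other points, which fall between -0.05 and 0.47.

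Markers of other cell types were set beside Neu2, library by library. The summed TPM of 14 markers of mature fibres, with Acta1 and Tnnt3 the most abundant, was 10.5, 61.4 and 54.7 in KO libraries 1, 2 and 3 and 17.9, 22.6 and 40.6 in WT libraries 1, 2 and 3. It was thus lowest in KO library 1, which had the highest Neu2 of the KO libraries; 13 of the 14 had a higher mean on the log2 scale in KO, and none was at 0 in any library. The summed TPM of 4 Schwann cell markers (Sox10, S100b, Mbp and Cdh19) was 2.6, 4.8 and 7.1 in KO libraries 1, 2 and 3 and 2.0, 2.8 and 2.6 in WT libraries 1, 2 and 3, with 4 of 4 higher in KO on the log2 scale and none at 0. Its groups overlapped through KO library 1, while Mbp, the most abundant of them, lay at 2.24, 3.91 and 5.98 TPM in KO libraries 1, 2 and 3 and at 1.72, 2.22 and 1.95 TPM in WT libraries 1, 2 and 3, without overlap. The 7 mural cell markers, led by Notch3 and Acta2, summed to 38.1, 58.1 and 53.9 TPM in KO libraries 1, 2 and 3 and 38.3, 38.8 and 38.1 TPM in WT libraries 1, 2 and 3, with 5 of 7 higher in KO and none at 0. Beside these counts, 77.6% of all genes tested had a positive difference, and KO lay entirely above WT in 13.5% of them. Of the 12 satellite cell markers, 10 were higher in KO on the log2 scale as well. The part of these cells in the values of Neu2 and Slc35a1 was not tested.

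The 9 markers of myogenic differentiation summed to 105.3, 69.9 and 77.3 TPM in KO libraries 1, 2 and 3 and 103.5, 102.9 and 96.3 TPM in WT libraries 1, 2 and 3. Of the 9, 5 had a higher mean on the log2 scale in KO, where 77.6% of all genes tested had. Most of the sum was Myod1, the master factor of the lineage, at 100.5, 64.25 and 65.52 TPM in KO libraries 1, 2 and 3 and 97.09, 100.12 and 86.96 TPM in WT libraries 1, 2 and 3. KO library 1 had the highest Myod1 of all, the highest Neu2 of its group, and a Neu2 below that of every WT library. Myog, which marks terminal differentiation, held 1.63, 1.80 and 6.43 TPM in KO libraries 1, 2 and 3 and 3.69, 1.27 and 4.59 TPM in WT libraries 1, 2 and 3, with no separation of the groups. Mymk, the fusion factor gene, lay at 0.18 to 1.12 TPM over all libraries and Mymx, its partner, at 0 to 0.12 TPM. The part of differentiating cells in the level of Neu2 was not tested.

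The remaining lists overlapped between the groups as well. Endothelial markers, led by Tek and Pecam1, summed to 11.5 to 23.1 TPM in KO and 11.7 to 18.0 TPM in WT, and fibro-adipogenic markers, led by Col3a1 and Dpt, to 102.0 to 131.6 TPM in KO and 61.3 to 161.8 TPM in WT. Leukocyte markers summed to 5.2 to 8.0 TPM in KO and 3.5 to 9.5 TPM in WT, with the pan-leukocyte gene Ptprc at 0.03 to 0.29 TPM over all libraries and Cd3e and Nkg7 listed at 0 in at least 1 library. Erythroid genes, led by Hba-a1 and Hbb-bs, varied most between libraries, at 418.5, 437.3 and 38.4 TPM in KO libraries 1, 2 and 3 and 214.7, 43.6 and 18.2 TPM in WT libraries 1, 2 and 3. The part of these cells, and of the erythroid share of the TPM total, in the values of the 10 genes was not tested.

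Likeness to Neu2 was ranked passing over predicted genes and unnamed clones. Over the 6 libraries, the genes whose log2(TPM + 1) was most like that of Neu2 were Commd6, Tatdn3, Tlnrd1, Entpd4, Snord55 and Slco2a1, with Pearson correlations of 0.997, 0.962, 0.957, 0.951, 0.946 and 0.945. Commd6 held 0.94, 0.74 and 0.73 TPM in KO libraries 1, 2 and 3 and 1.45, 1.23 and 1.45 TPM in WT libraries 1, 2 and 3. Entpd4 held 0.46, 0 and 0 TPM in KO libraries 1, 2 and 3 and 1.02, 1.19 and 1.22 TPM in WT libraries 1, 2 and 3. Both reached 1 TPM in WT libraries alone, so they entered the test only through the group where they are high. Tlnrd1 held 1.69, 1.4 and 1.72 TPM in KO libraries 1, 2 and 3 and 5.39, 2.80 and 4.83 TPM in WT libraries 1, 2 and 3, and Slco2a1, a prostaglandin transporter gene, 2.90, 2.29 and 2.12 TPM in KO libraries 1, 2 and 3 and 5.38, 6.63 and 9.32 TPM in WT libraries 1, 2 and 3. The genes most opposite were Bicc1, Smad2 and Tulp4, each with a correlation of -0.995. These are descriptions over 6 points that fall into 2 groups, and every one of these 9 genes also separates KO from WT without overlap. Within groups, on deviations from the group means, the genes most like Neu2 were Thyn1, Anapc13 and Snord12, with correlations of 0.995, 0.983 and 0.976, and in all 3 the KO and WT values overlapped. None of the genes named by the likeness over 6 libraries is a member or stands in the pathway lists, but only the ends of the ranking of tested genes were named. All 9 other members had negative correlations with Neu2 over the 6 libraries, from -0.369 for Neu1 to -0.924 for St6gal1, which was not tested and so not ranked. Slc35a1 was at -0.889, and the supply gene Gfpt2 was at 0.897. These values also rest on 6 points in 2 groups.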

How the data were processed

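The authors deposited TPM per gene symbol for 6 libraries. Tools listed in the submitters' processing notes are kallisto, FastQC, Trimmomatic 0.33 and CASAVA, and builds are GRCm38 and mm10, without role or order. The annotation, strandedness and the summing of transcripts per gene are not given in the sources used here. Neither a count model nor counting intervals were used, since depth is unknown. Members were matched by symbol. Genes reaching 1 TPM in 3 or more libraries entered limma 3.58.1 (R 4.3.3) after a log2(TPM + 1) transform (eBayes with a trend, two-sided, all 6 libraries), with Benjamini-Hochberg adjustment over 8971 genes; members' SEs are from the ordinary pooled variance. The procedure was tested on simulated data. The members, lists and motifs were chosen with earlier results of these data known. Named were all members, up to 6 genes of each pathway list by p with Ctsa, Glb1, St3gal5 and Neu4, the 6 genes most and 3 least like Neu2 (and 3 within groups), its neighbours within 100 kb, and the most abundant markers; 2 genes of the Schwann cell list are not reported here, and that sum was formed without them. Hexa, Pax7, Vcam1, Mymk, Mymx and Ptprc were named after their values were seen. Motifs were counted in the 250 bases before each RefSeq start (GRCm38.p6). Libraries were numbered in accession order within a group. Figures were drawn with matplotlib 3.10.9.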

Additional observations from a re-analysis of the deposited data

How the results depend on the processing

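The log2 difference of Neu2 kept its sign in all 16 settings, between -2.36 and -1.14. The value of -1.14 came with a pseudocount of 5, and leaving out 1 library gave -2.19 to -1.76. The Neu2 share of the sialidases differed by -38.4 percentage points, or -45.5 to -32.4 without 1 library. The differences of Gne, Nans, Cmas, Slc35a1 and St6gal1 kept their sign in each setting that gave a value; Neu1, Neu3, St3gal1 and St3gal4 changed sign in 2, 1, 3 and 2 settings. The 4 members not tested have no value under quantile normalization. With protein-coding genes alone, rescaled, the difference of Slc35a1 was 0.69 and that of St6gal1 was 1.21.

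Genes called higher over the whole table were 3, or 0 with a pseudocount of 0.1, with no filter and with a mean TPM of 1, and 1 with a TPM minimum of 5, with median-of-ratios scaling and with quantile normalization. Genes called lower were 2, or 0 with a pseudocount of 5, no filter, a mean TPM of 1 and quantile normalization. With protein-coding genes alone, rescaled, they were 38 higher and 48 lower, and with estimated library weights 53 and 27, where 1 supply gene, Gfpt2 (-1.06), passed. Leaving out 1 library gave 0 to 4 higher and 0 to 2 lower by limma, with 0 of each without KO library 3. At an unadjusted p of 0.05 these fits gave 438 to 1202 higher and 197 to 245 lower, the unfiltered fit 1198 and 374, and the fit at a mean TPM of 1 gave 723 and 243. The balance turned to 355 higher and 435 lower under median-of-ratios scaling and 368 and 435 under quantile normalization, and was 1554 and 191 with protein-coding genes rescaled and 2079 and 315 with library weights.

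The median difference of all genes was 0.00883 under median-of-ratios scaling, -0.00141 under quantile normalization and 0.22 with protein-coding genes rescaled. That of the 9 other members was 0.19 with a pseudocount of 0.1, 0.25 with protein-coding genes rescaled and 0.074 to 0.176 without 1 library. That of the supply list was -0.38 with a TPM minimum of 5, 0.0145 and -0.0052 under median-of-ratios and quantile scaling, 0.22 with protein-coding genes rescaled and 0.076 to 0.207 without 1 library. That of the ganglioside list was 0.40 with a TPM minimum of 5, 0.20 with library weights and -0.0173 to 0.171 without 1 library, and that of the sialic acid binding list -0.0722 to 0.586 without 1 library. The cause of these shifts was not tested, except that stricter minimums test fewer genes. With 3 libraries per group and no depth, values under 1 TPM have unknown precision. No paired analysis was possible because the titles number every library differently.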
